A study of Homo sapiens with 5 samples.

Results

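The mucin genes MUC1, MUC4, MUC16, MUC5AC, MUC5B, MUC13, MUC20 and MUC15 were taken by their symbols, and all 8 were found among the 36601 genes of the RNA matrix. Their RNA and the open chromatin around them were described across nuclei from a mixture of 5 human lung adenocarcinoma cell lines, A549, HCC827, H838, H1975 and H2228. The lines were grown separately without treatment, mixed in equal numbers and lysed to nuclei, which were sorted and captured with the 10× Multiome protocol. In this protocol RNA and ATAC signal (cuts in open chromatin) are read from each nucleus under a shared barcode. The droplets (GEMs) were split into an 80% and a 20% portion, each with 1 RNA and 1 ATAC library, so there were no replicates and no difference carries a test.

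Mucins are large glycoproteins whose repeated serine- and threonine-rich stretches carry dense O-linked sugar chains. The gel-forming mucins MUC5AC and MUC5B are secreted by airway goblet and gland cells and form the polymers of mucus. The membrane-bound mucins MUC1, MUC4, MUC13, MUC15 and MUC16 stand on the apical surface of epithelia, where their outer parts can be shed, and MUC16 carries the serum antigen CA125. Lung adenocarcinomas are glandular tumours and often make mucins.

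The 80% matrix held 6557 nuclei with 95455518 RNA UMIs and 63920767 ATAC counts, and the 20% matrix held 1286 nuclei with 14346346 UMIs and 12850543 ATAC counts. A UMI is a tag that marks 1 captured RNA molecule. Of the barcodes, 159 were present in both portions. Nuclei were clustered on their RNA without any mucin gene, and the rule gave 5 clusters. Cluster 3 was divided in the ATAC data, so levels are also given for its subclusters 3a and 3b from a solution with 6 clusters that was chosen after this was seen. The clusters 0, 1, 2, 3a, 3b and 4 held 2485, 1459, 1450, 467, 366 and 330 nuclei, with median depths of 15406, 9140.0, 12672, 17551, 14488 and 12024 UMIs. Between 89.2% and 97.3% of the nuclei of each of them shared an ATAC cluster in a solution with 6 ATAC clusters, which was also chosen after seeing the data. The rule itself gave 5 ATAC clusters, which merged RNA clusters. No cluster was tied to a cell line, and the clusters are named by number. Their leading genes had the largest excess in UMIs for every 1000000 UMIs over the next highest cluster, which favours abundant genes. These were MALAT1, S100A10 and S100A6 in cluster 0, ALDH1A1, AKR1B10 and KRT18 in cluster 1, and LDHB, ITPR2 and HSP90AB1 in cluster 2. Subcluster 3a was led by HSP90AA1, HSPB1 and DHRS2, 3b by PVT1, VIM and RPS28, and cluster 4 by EGFR, SEC61G and RPL7. MALAT1 in 3b reached 92.7% of its level in cluster 0, so it hardly sets cluster 0 apart. All 5 epithelial markers (EPCAM, KRT8, KRT18, KRT19 and CDH1) were present with 4019 or more UMIs, whereas EPCAM ranged from 23.4 CPM (UMIs for every 1000000 UMIs) in cluster 2 to 762 in cluster 4. Of 4 lung markers, the surfactant genes SFTPB and SFTPC were nearly absent, with 26 and 6 UMIs in all. The lung lineage factor NKX2-1 had 3193 UMIs, with 74.6 CPM in cluster 4, 61.3 in 3a, 50.2 in cluster 0, 16.8 in 3b and at most 2.41 in clusters 1 and 2. NAPSA, a protease of alveolar cells, had 738 UMIs, with 70.3 CPM in cluster 4 and 1.78 to 6.53 in the others. Of 7 markers of blood, endothelial and stromal cells, 5 had 34 UMIs or fewer, and only PECAM1 with 589 and COL1A1 with 12175 passed 100 UMIs. COL1A1 was highest in cluster 0, at 242 CPM.

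The mucins fell into 3 patterns. MUC1, MUC4 and MUC20 were highest in cluster 0, MUC5AC, MUC5B and MUC13 in cluster 1, and MUC16 in cluster 4. RNA levels are in CPM of the summed UMIs of a cluster, and their 95% Poisson intervals cover counting error only. Of the 8 genes, 7 had at least 100 UMIs, and in all 7 the highest of the 5 clusters was at least 2-fold above the next, against 17.6% of the 16913 genes with as many UMIs. A 4-fold difference was met by 3 of them (MUC5AC, MUC13 and MUC4), against 6.76% of all genes. The median ratio of the highest to the next cluster was 3.35 for the 7 mucins and 1.28 for all genes. The 8 genes were chosen with earlier results of these data known, so their difference from all genes may reflect this choice. It is not read as a trait of mucins in general. Of 5 other mucins and mucin-like genes with 100 UMIs, 2 were at least 2-fold higher in 1 cluster, and their median ratio was 1.33. With 6 clusters the count was 6, since MUC16 was 1.92-fold higher in cluster 4 than in subcluster 3a. In the 20% matrix 6 mucins had at least 100 UMIs, and 5 of them were at least 2-fold higher in 1 cluster, against 12.8% of all genes. Each of the 6 was highest in the same cluster as in the 80% matrix. Clusters cut from the ATAC signal in place of the RNA gave counts of 5. The shares of all genes with 6 clusters or with ATAC clusters are not given here.

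**Figure D1:**
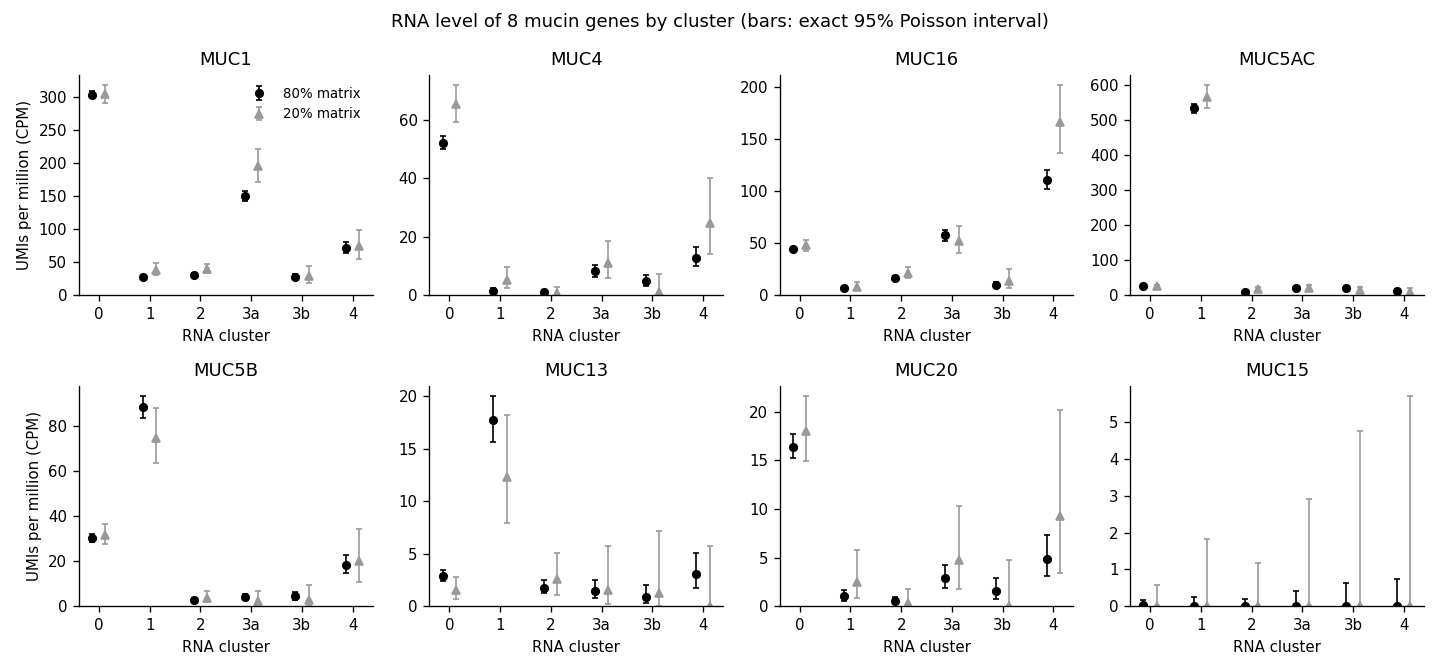
RNA level of the 8 mucin genes in UMIs for every 1000000 UMIs of a cluster (CPM, vertical axes, each panel with its own scale from 0) in the 6 RNA clusters (horizontal axes), for the 80% matrix (black circles) and the 20% matrix (grey triangles) with exact 95% Poisson intervals. MUC1, MUC4 and MUC20 stand highest in cluster 0, MUC5AC, MUC5B and MUC13 in cluster 1, and MUC16 in cluster 4, in both matrices.

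MUC1, a membrane mucin found on most glandular epithelia, had 15586 UMIs in the 80% matrix. Its level was 303 CPM (95% interval 298 to 309) in cluster 0, 28.5 in cluster 1, 31.0 in cluster 2, 150 in subcluster 3a, 28.5 in subcluster 3b and 72.1 in cluster 4. In the 20% matrix the values in the same order were 304, 38.9, 39.9, 195, 29.8 and 74.3 CPM. Cluster 0 was thus the highest in both portions, subcluster 3a followed, and the intervals of clusters 1, 2 and 3b overlapped. The ratio of cluster 0 to the next was 3.0 (2.84 to 3.16) with 5 clusters and 2.03 (1.92 to 2.15) over subcluster 3a. With clusters cut from the ATAC signal it was 1.44 for 5 clusters and 1.94 for 6, below the 2-fold threshold. At least 1 UMI of MUC1 was found in 93.8% of the nuclei of cluster 0, in 70.4% of subcluster 3a and in 23.7% of cluster 1, which had the lowest depth. After every nucleus was thinned to 5000 UMIs the shares were 71.9%, 42.5% and 12.6%. The subclusters of cluster 3 thus differed for this gene, with 150 CPM in 3a and 28.5 in 3b. The annotation also lists ENSG00000273088, which overlaps MUC1 on the same strand, and its reads cannot be told apart.

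The MUC1 promoter lies in a peak that was open in every cluster. The gene runs on the minus strand of chr1:155185824-155192916 (hg38), and the 1210 bp peak at chr1:155192748-155193957 covers its start. Its ATAC level in CPM, here for every 1000000 ATAC counts of the cluster, was 85.4 in cluster 0, 50.3 in cluster 1, 58.6 in cluster 2, 51.8 in 3a, 47.2 in 3b and 51.5 in cluster 4. Cluster 0 was 1.46-fold above the next, so the peak differed much less than the RNA. A count in it was found in 37.4% of the nuclei of cluster 0 and in 17.9% to 23.3% of clusters 1, 2 and 4. The median ATAC depth was 11502 counts in cluster 0 and 7343, 6516 and 10045 in these 3, and the shares are not adjusted for it. The 250 bases before the RefSeq start, chr1:155192916-155193165, are shown because they carry a TATA box close to the start and a row of GC boxes, marked by capitals (RefSeq, GRCh38.p14, minus strand).
MUC1 promoter: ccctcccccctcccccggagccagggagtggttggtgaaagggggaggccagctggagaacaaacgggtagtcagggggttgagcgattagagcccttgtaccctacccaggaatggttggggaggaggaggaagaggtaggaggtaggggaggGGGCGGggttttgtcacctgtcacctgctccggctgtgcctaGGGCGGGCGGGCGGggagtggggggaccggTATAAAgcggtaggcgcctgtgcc
The letters TATAAA, on either strand, occur in 10.7% of 35116 RefSeq promoters of this length, and the GC box GGGCGG in 42.6%. MUC1 held 1 match of the first and 4 of the second, of which neighbouring GC boxes share letters.

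MUC4, a membrane mucin that binds the receptor ERBB2, had 2397 UMIs. Its level was 52.1 CPM (49.9 to 54.3) in cluster 0, 1.69 in cluster 1, 1.15 in cluster 2, 8.22 in 3a, 4.91 in 3b and 12.9 in cluster 4. The 20% matrix gave 65.2, 5.42, 0.958, 11.1, 1.29 and 24.8 CPM. Cluster 0 was the highest in both, 4.05-fold (3.15 to 5.29) above cluster 4 in the 80% matrix and 2.63-fold (1.60 to 4.65) in the 20% matrix. UMIs of MUC4 were found in 45.4% of the nuclei of cluster 0 and in 1.45% of cluster 2 (20.4% and 0.628% after thinning).

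MUC20, a gene next to MUC4 on chromosome 3 whose protein binds the MET receptor, had 773 UMIs and the same order at the top. It reached 16.4 CPM (15.2 to 17.7) in cluster 0, 4.90 in cluster 4, 2.93 in 3a, 1.53 in 3b, 1.02 in cluster 1 and 0.524 in cluster 2. Cluster 0 was 3.35-fold (2.23 to 5.27) above cluster 4, and 1.95-fold (0.869 to 5.42) in the 20% matrix, where MUC20 had 135 UMIs. After thinning to 5000 UMIs the ratio was 5.77, from 220 UMIs in cluster 0 and only 5 in cluster 4, so this value is imprecise. The gene overlaps MUC20-OT1 on its own strand and has near-identical copies, and the sources do not say how reads shared with them were counted. Its level is uncertain for this reason.

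MUC13, a membrane mucin of the gut and other epithelia, was weak everywhere, with 448 UMIs. It was highest in cluster 1 at 17.7 CPM (15.6 to 20.0) and between 0.847 and 3.06 CPM elsewhere. Cluster 1 was 5.77-fold (3.44 to 10.5) above cluster 4, with UMIs in 13.4% of its nuclei. The 20% matrix held 46 UMIs of MUC13, of which 25 were in cluster 1, and these were too few for the minimum of 100.

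MUC15, the remaining membrane mucin, was close to absent. It had 2 UMIs in the 80% matrix, both in cluster 0, and 0 in the 20% matrix. The 0 UMIs in cluster 1 allow a level of up to 0.203 CPM by the limit of 3 counts, and those in cluster 4 up to 0.613 CPM. MUC15 lies within ANO3 on the opposite strand.

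MUC16, the largest of the membrane mucins by protein size, was highest in cluster 4. Its 3420 UMIs gave 111 CPM (102 to 120) in cluster 4, 57.6 (52.7 to 62.8) in 3a, 44.9 in cluster 0, 16.4 in cluster 2, 10.2 in 3b and 7.39 in cluster 1. The 20% matrix gave 167, 52.2, 48.0, 21.7, 14.2 and 8.38 CPM in this order. Cluster 4 stood above all others in both portions, whereas the intervals of 3a and cluster 0 overlapped in the 20% matrix. Cluster 4 is led by EGFR at 7149 CPM and had the highest EPCAM level, 762 CPM, followed by 3a with 684 CPM. UMIs of MUC16 were found in 64.8% of the nuclei of cluster 4 and in 6.31% of cluster 1 (39.3% and 3.93% after thinning).

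The start of MUC16 in the deposited feature table, 8981342 on chromosome 19, had no peak within 1000 bp. In GENCODE v44 its longest transcripts start further upstream at 9010390, within the peak chr19:9009924-9010756. This peak had 24.6 CPM in cluster 4, 19.9 in 3a, 9.14 in 3b, 9.11 in cluster 0, 7.16 in cluster 2 and 2.92 in cluster 1. The RNA and the peak thus shared their first pair and their last cluster, and the peak was 1.57-fold (1.20 to 2.03) higher in cluster 4 than in the next of the 5 clusters. In the 20% matrix the peaks over this place had 32.7 CPM in cluster 4 and 18.7 in cluster 3, and 10.6, 3.75 and 3.91 in clusters 0, 1 and 2. The 250 bases before the RefSeq start, which lies slightly further upstream in the same peak, chr19:9010410-9010659, are shown because the upstream start and not the annotated one was open (RefSeq, GRCh38.p14, minus strand).
MUC16 upstream promoter: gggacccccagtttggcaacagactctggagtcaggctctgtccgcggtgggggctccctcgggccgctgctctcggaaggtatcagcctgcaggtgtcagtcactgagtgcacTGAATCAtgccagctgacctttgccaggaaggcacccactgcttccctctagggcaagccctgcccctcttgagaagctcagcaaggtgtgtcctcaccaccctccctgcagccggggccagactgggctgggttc
Capitals mark a match to TGANTCA on either strand, a loose form of the AP-1 motif that allows any middle base, here A. Of the promoters of this length, 6.57% hold such letters. Whether AP-1 binds here was not tested. No TATA, GC or CCAAT box stands in these letters.

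MUC5AC, the main gel-forming mucin of goblet cells of the airway surface, had the largest ratio of the 7 mucins. Its 9520 UMIs gave 533 CPM (521 to 545) in cluster 1, and 25.7 in cluster 0, 20.8 in 3a, 20.2 in 3b, 13.5 in cluster 4 and 11.2 in cluster 2. In the 20% matrix it reached 565 CPM in cluster 1 and 10.8 to 26.3 CPM elsewhere. Cluster 1 was 20.7-fold (19.4 to 22.1) above cluster 0 in the 80% matrix and 21.2-fold (18.1 to 25.1) in the 20% matrix. Of the 385 nuclei called as doublets, 201 were in cluster 0 (8.09% of its nuclei) and 65 in cluster 1. With all of them removed, the ratio of cluster 1 to cluster 0 was 38.2. The levels outside cluster 1 were 2.10% to 4.83% of that in cluster 1. ALDH1A1, the leading gene of cluster 1, had 1.62% to 3.91% of its own level in the other clusters, and AKR1B10 2.77% to 11.0%. MUC5AC in cluster 0 was thus above the range of ALDH1A1 and within that of AKR1B10. Outside cluster 1 single nuclei held up to 36 UMIs of MUC5AC in cluster 0 and 23 in 3a. Thinned to 5000 UMIs, the variance over the mean was 2.02 in cluster 0 and 2.23 in 3a, and without doublets it was 1.5 and 0.946. The parts of free RNA, doublets and expression in these low levels were not tested. UMIs were found in 73.8% of the nuclei of cluster 1 and in 20.8% of cluster 0, whose median depth was higher (15406 against 9140.0 UMIs). After thinning the shares were 65.2% and 8.34%.

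MUC5B, the gel-forming mucin of submucosal glands and of distal airways, had 2779 UMIs and was highest in cluster 1, followed by clusters 0 and 4. Its level was 88.3 CPM (83.6 to 93.3) in cluster 1, 30.4 (28.7 to 32.1) in cluster 0, 18.4 in cluster 4, 4.41 in 3b, 3.94 in 3a and 2.67 in cluster 2. The 20% matrix gave 74.9, 31.8, 20.1, 2.59, 2.37 and 3.83 CPM. Cluster 1 was 2.91-fold (2.69 to 3.14) above cluster 0, and 3.21-fold without doublets. Cluster 0 held 1274 UMIs of MUC5B and cluster 1 held 1303, in 28.1% and 37.3% of their nuclei. Cluster 0 had 34.4% of the MUC5B level of cluster 1, against 4.83% of the MUC5AC level. MUC5B overlaps the antisense gene MUC5B-AS1 and the microRNA gene MIR6744, and the sources do not say whether the counting used the strand.

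Chromatin upstream of both gel-forming genes was open in cluster 1. They lie side by side on the plus strand of chromosome 11, MUC5AC at chr11:1157953-1201138 and MUC5B at chr11:1223066-1262172. MUC5AC had no peak within 1000 bp of its start, and the peak with the largest excess in 1 cluster was centred 6814 bp upstream, at chr11:1150697-1151579. It had 35.0 CPM in cluster 1, 6.13 in cluster 0, 5.33 in cluster 4, 2.91 in 3a, 2.67 in cluster 2 and 1.27 in 3b. Cluster 1 was 5.71-fold above the next, and a count was found in 13.6% of its nuclei against 3.58% in cluster 0. A second peak 3872 bp upstream, chr11:1153652-1154509, was open in all clusters, with 41.4 CPM in cluster 1 and 18.8 to 26.6 in the others. The counterpart for MUC5B was centred 3076 bp upstream of its start, at chr11:1219539-1220440. It had 47.8 CPM in cluster 1, 8.33 in cluster 0, 4.31 in cluster 4, 3.20 in cluster 2, 1.62 in 3a and 1.52 in 3b. Cluster 1 was also the highest at both places in the 20% matrix. The MUC5AC peak had 31.9 CPM there, against 14.2 from 10 counts in cluster 4 and 2.34 to 4.32 in the others, so the next cluster was closer than in the 80% matrix. The MUC5B peak had 47.8 CPM in cluster 1 and at most 9.91 elsewhere. Between them, at chr11:1201738-1202462, lay another peak with 10.2 CPM in cluster 1 and 1.78 to 4.06 in the others.

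The middle 300 bases of the upstream peaks of MUC5AC (chr11:1150989-1151288) and MUC5B (chr11:1219840-1220139) are printed because these peaks had the largest excess of cluster 1 over the next cluster near these genes (hg38, plus strand). For MUC4, the middle of an intronic peak (chr3:195802121-195802420, hg38, plus strand) is shown, which had the largest ratio of cluster 0 to the next among its peaks.
MUC5AC upstream peak: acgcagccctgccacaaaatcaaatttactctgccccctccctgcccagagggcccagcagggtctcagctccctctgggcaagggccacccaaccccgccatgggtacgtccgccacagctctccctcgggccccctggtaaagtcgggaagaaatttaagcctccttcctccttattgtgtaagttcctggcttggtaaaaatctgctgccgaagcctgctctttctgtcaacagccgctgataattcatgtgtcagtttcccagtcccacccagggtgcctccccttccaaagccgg
MUC5B upstream peak: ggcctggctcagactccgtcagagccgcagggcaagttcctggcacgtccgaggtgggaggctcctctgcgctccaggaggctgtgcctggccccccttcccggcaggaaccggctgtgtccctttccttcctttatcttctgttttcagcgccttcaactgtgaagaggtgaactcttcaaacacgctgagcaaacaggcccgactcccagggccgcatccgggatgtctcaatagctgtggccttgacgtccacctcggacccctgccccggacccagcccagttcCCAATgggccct
MUC4 intronic peak: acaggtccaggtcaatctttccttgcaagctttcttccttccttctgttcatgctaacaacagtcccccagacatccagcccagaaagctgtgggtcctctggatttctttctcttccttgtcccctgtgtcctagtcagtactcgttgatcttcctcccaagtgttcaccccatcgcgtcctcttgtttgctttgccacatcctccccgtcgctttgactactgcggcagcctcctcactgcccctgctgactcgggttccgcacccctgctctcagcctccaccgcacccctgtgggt
Capitals mark matches on either strand to 6 motifs, which were the TATA box (TATAAA), the GC box (GGGCGG), the CCAAT box, the AP-1 motif (TGANTCA), the forkhead motif (TGTTTAC) and the antioxidant response element (TGACNNNGC). AP-1 and antioxidant motifs can share letters. The MUC5B peak held 1 CCAAT, which occurs in 32.8% of the middle 300 bases of 158255 peaks, and the other sequences held none of the motifs. In all peaks the loose AP-1 letters were found in 33.8%, the antioxidant motif in 16.3% and the forkhead motif in 5.28%.

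MUC5B was also the only mucin whose start peak passed the 2-fold difference. Start peaks with at least 100 counts were found within 1000 bp for MUC1, MUC4, MUC5B and MUC20, and 1 of these 4 was called, against 17.5% of all start peaks. The MUC5B start peak, chr11:1222444-1223354, had 25.0 CPM in cluster 1, 11.0 in cluster 0, 8.88 in cluster 4, 4.70 in cluster 2, 2.10 in 3a and 0.508 in 3b. Cluster 1 was 2.27-fold (1.93 to 2.67) above cluster 0, and the first 3 clusters were in the same order as in the RNA. The MUC4 start peak was weak, with 5.55 CPM in cluster 0, 4.82 in cluster 4 and 0 in cluster 1. At the start of MUC20 the levels ran from 1.02 to 4.06 CPM, and at that of MUC13 in the feature table from 0 to 2.36. With the starts of GENCODE v44 in place of these, MUC13 and MUC16 also had a start peak. MUC5B was still the only mucin called. Most ATAC counts were even numbers, so they may count fragments by both cuts, and their intervals are then too narrow.

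Around MUC4 the chromatin of cluster 0 stood out over many peaks. Of the 15 peaks with at least 100 counts within 50 kb of its start, 12 (80.0%) were highest in cluster 0, where 23.7% of all such peaks were highest. The shown intronic peak, chr3:195801826-195802715, had 9.25 CPM in cluster 0, 2.03 in cluster 4, 1.82 in cluster 2, 0.442 in cluster 1, 0.508 in 3b and 0 in 3a. A peak 11406 bp upstream, chr3:195822941-195823730, had 18.4 in cluster 0, 7.61 in cluster 4, 6.80 in 3a and 0.796 to 2.28 in the others. Another in an intron, chr3:195804148-195805070, was nearly as open in cluster 4 (21.6) as in cluster 0 (25.7) and had 6.47 in 3a, 1.78 in 3b, 1.39 in cluster 2 and 0.265 in cluster 1. It was picked out after its values were seen. The peak 35468 bp upstream went another way, with 31.2 in 3a and 26.4 in 3b against 20.6 in cluster 0. A peak 3916 bp upstream of MUC20, chr3:195716655-195717279, had 18.8 CPM in cluster 0, 10.4 in cluster 4 and 2.14 to 8.25 in the others.

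For the 7 mucins with 100 UMIs, 39 of 72 nearby peaks (54.2%) were highest in the cluster where the gene's RNA was highest. Peaks near more than 1 gene were counted for each. The shares were 6 of 8 for MUC5B, 5 of 9 for MUC5AC and 4 of 7 for MUC13, against 20.1% of all peaks for cluster 1. MUC1 had 6 of 16 and MUC20 3 of 9, against 23.7% for cluster 0, and MUC16 had 3 of 8, against 16.6% for cluster 4. The peaks near MUC13 with the largest excess lay in the neighbouring gene ITGB5, for instance chr3:124886172-124886880 with 27.3 CPM in cluster 1 and 11.2 to 16.5 in the others. Near MUC1 the peak 31930 bp upstream, chr1:155224412-155225279, had 21.3 in cluster 0 and 15.0 or less elsewhere. Within 50 kb of MUC15, 1 peak had 100 counts or more, in an intron of ANO3, with 11.7 CPM in cluster 0 and 8.67 in cluster 1.

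**Figure D2:**
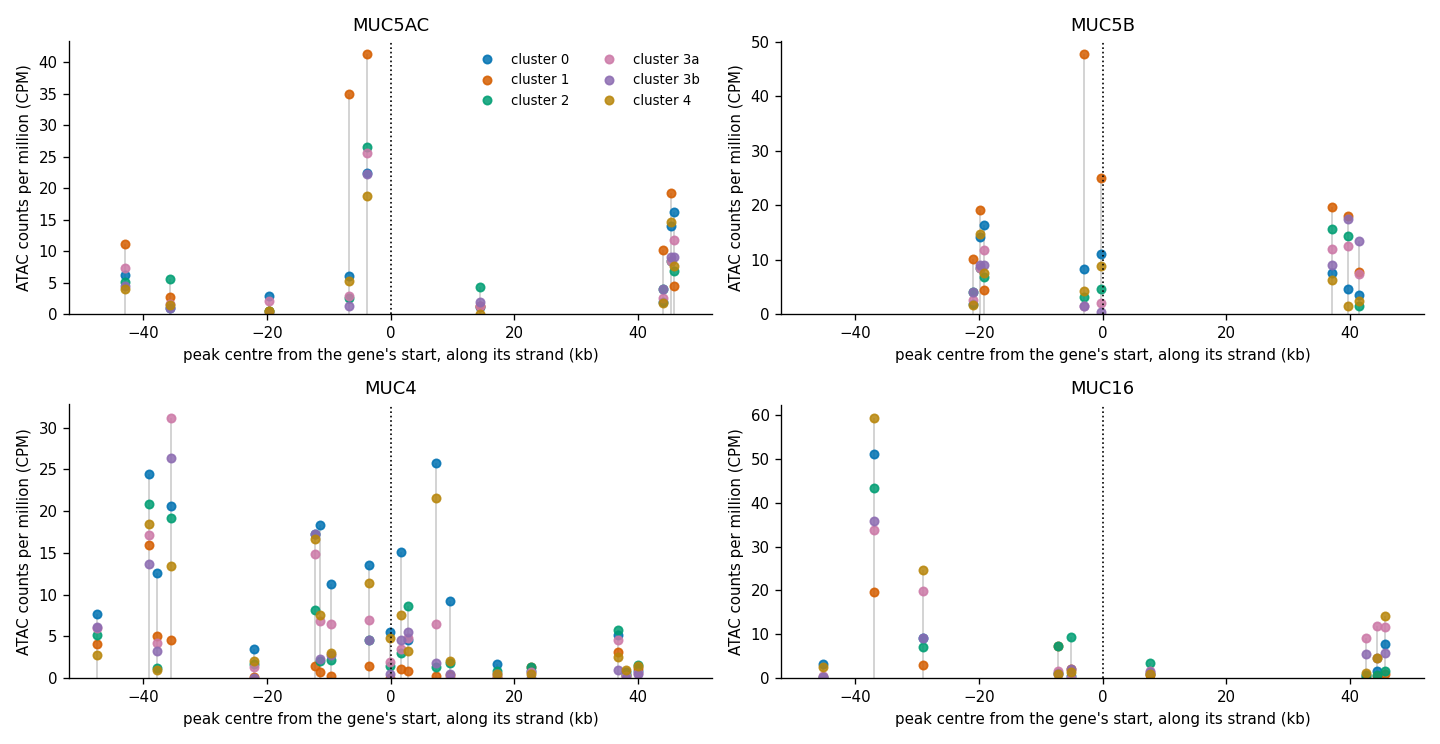
ATAC counts for every 1000000 counts of a cluster (CPM, vertical axes, from 0) of every peak within 50 kb of the starts of MUC5AC, MUC5B, MUC4 and MUC16 in the feature table, against the distance of the peak's centre from that start in kb along the gene's strand (horizontal axes, upstream to the left), with 1 point for each of the 6 RNA clusters. Cluster 1 reaches 35.0 in the peak 6814 bp upstream of MUC5AC and 47.8 in the peak 3076 bp upstream of MUC5B, most peaks near MUC4 are highest in cluster 0, and the MUC16 peak 28998 bp upstream is highest in cluster 4.

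Within cluster 1 MUC5AC was spread unevenly over the nuclei. After thinning to 5000 UMIs, 65.2% of 1426 nuclei had a UMI of MUC5AC, whereas a Poisson distribution of the same mean of 2.79 UMIs gives 93.9%. The variance was 5.01 times the mean (the Fano factor), and the top 71 nuclei held 26.0% of the UMIs, with up to 26 in a nucleus. MUC5B in the same nuclei had a Fano factor of 2.54 and UMIs in 23.6%, against 34.9% from a Poisson distribution. In their own highest clusters MUC1 had a Fano factor of 1.52, MUC4 of 1.36, MUC16 of 1.19, MUC13 of 1.19 and MUC20 of 1.06. Their mean UMIs were 1.58, 0.263, 0.533, 0.0933 and 0.0899 in this order, and that of MUC5B was 0.429. A Fano factor lies closer to 1 at a low mean, so these values do not rank the genes by how unevenly they are spread. UMIs of both MUC5AC and MUC5B were found in 272 nuclei, against 220 from the product of their shares. In subcluster 3a both MUC1 and MUC16 were found in 68 nuclei, against 46.7 from the product, and in 61 against 40.7 without doublets. This pair was picked out after its values were seen. The nuclei with both, over the product, gave 1.46 in 3a and 0.711 to 1.26 in the other clusters.

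The gene that followed MUC5AC most closely among the nuclei of cluster 1 was AGR2, a protein disulfide isomerase of the endoplasmic reticulum that mucin-producing cells need to make mucins. Over 1426 thinned nuclei Pearson's r was 0.60 on the log scale, and over 3086 genes with at least 500 UMIs the median r was 0.00. The next genes were SLC12A2, a sodium, potassium and chloride cotransporter, with an r of 0.37, and FN1, fibronectin, with 0.34. In the 20% matrix, over 223 nuclei of cluster 1, the same pairs had r of 0.59, 0.37 and 0.32. Without the shared barcodes AGR2 had an r of 0.59 in the larger and 0.63 in the smaller matrix, and 0.60 with doublets removed. The draw that gave the r of 0.60 was separate from that used for the spread above. In this same draw, the 498 nuclei without a MUC5AC UMI had a median of 3 UMIs of AGR2, and the 388 nuclei with 1 or 2 had 6. The 291 nuclei with 3 to 5 had 10, and the 249 with 6 or more had 17. The corresponding medians in the 20% matrix were 3, 4, 10 and 13. The level of AGR2 was thus higher in each higher class of MUC5AC in both portions, although the quartiles of neighbouring classes overlapped. AGR2 also led the genes alike to MUC5B in cluster 1, with an r of 0.27 in the 80% and 0.17 in the 20% matrix. Nuclei of a cluster share a library, and these correlations are descriptions of it. The genes compared within a cluster were chosen after the values over all nuclei had been seen.

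**Figure D3:**
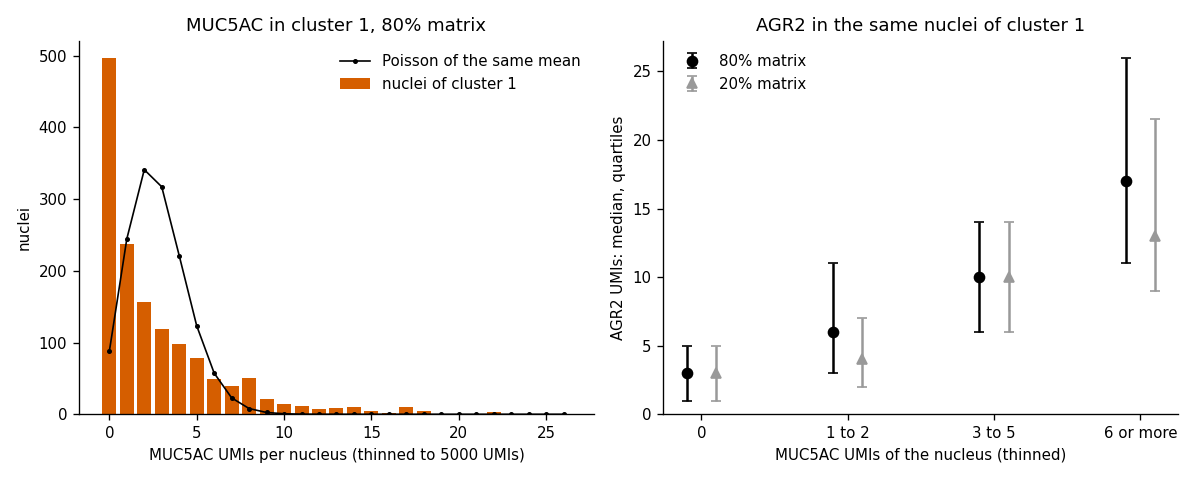
Left, the number of nuclei of cluster 1 in the 80% matrix (vertical axis) by their MUC5AC UMIs after thinning to 5000 UMIs (horizontal axis, shown to 26), with the counts of a Poisson distribution of the same mean of 2.79 as a black line. Right, median AGR2 UMIs with quartiles (vertical axis) in nuclei of cluster 1 grouped by MUC5AC UMIs (horizontal axis) in the 80% matrix (black) and the 20% matrix (grey), which go from 3 to 17 and from 3 to 13.

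Across all 6557 nuclei the genes most alike to each mucin were genes of the same cluster. For MUC5AC these were CNTN1, GPX2 and ALDH1A1, with r of 0.709, 0.687 and 0.670 among 12440 genes. For MUC1 they were BBOX1-AS1 (0.628), CDH11 (0.608) and MEG3 (0.594). MUC4 was most like ADGRF1 (0.445) and MUC1 (0.444), and MUC5B most like AGR2 (0.440) and MUC5AC (0.346). MUC16 was most like EPCAM, with an r of 0.331, and MUC20 most like BBOX1-AS1, with 0.325. The nuclei share their library, and depth and cluster enter each of these values. Within cluster 0, over thinned nuclei, MUC1 was most like NEAT1 with an r of 0.23 and MUC4 most like GPRC5A with 0.12. The values over all nuclei are for other pairs of genes and without thinning, so the strengths are not compared.

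Genes that serve mucin production were compared by the same ratio, in lists set with earlier results of these data known. Only genes with MUC symbols were left out of the clustering. Other listed genes could help to shape the clusters in which they are compared, so their counts are not on the same footing as that of the mucins. The list named secreted companions, which also holds AGR2 of the endoplasmic reticulum, had a median ratio of 4.14. All 4 of its 13 genes that reached 100 UMIs were at least 2-fold higher in 1 cluster (17.6% of all genes). FCGBP, a mucus protein that binds mucins, had 36.8 CPM in cluster 1 and 0.890 to 2.04 elsewhere, an 18.0-fold ratio. AGR2 had 1798 CPM in cluster 1, 395 in cluster 0 and 106 to 166 in the others. The trefoil peptide TFF1 had 75.9 CPM in cluster 1, 36.4 in 3b and 17.0 in cluster 0, and TFF3 was highest in cluster 0 at 3.82 CPM. The other companions had 94 UMIs or fewer. TFF2 (94) and SCGB3A1 (18) were highest in cluster 0, and AGR3 (64) and BPIFB1 (26) in cluster 1. ERN2, SCGB1A1, CLCA1, ITLN1 and SCGB3A2 had 13, 5, 2, 2 and 0 UMIs in all. In the 20% matrix 2 companions were called, against 12.8% of all genes.

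Among 17 epithelial and secretory transcription factors with 100 UMIs, 6 were called, against 17.6% of all genes, and the median ratio was 1.48. Of these, 4 were highest in cluster 1, where 610 of the 2971 called genes of the whole matrix were highest. HNF4A, a factor of gut and liver epithelia, had 31.8 CPM in cluster 1 and at most 1.02 elsewhere, a 37.0-fold ratio over cluster 0. SPDEF, the factor that drives goblet cell differentiation, had 18.9 CPM in cluster 1, 6.01 in cluster 0 and 0.838 to 2.25 in the others, which is the order of MUC5B at the top. CREB3L1, of the same list, was lowest in cluster 1 at 6.92 CPM, with 46.1 in cluster 0 and 69.3 in 3b. FOXA2 had 30.7 CPM in cluster 1 and 14.6 in 3a. EHF, an epithelial ETS factor, was highest in cluster 0 at 70.1 CPM, followed by 21.0 in cluster 4, the same first pair as MUC4. HNF4G was highest in cluster 4, where MUC16 was highest, at 115 CPM against 32.5 in cluster 0.

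Of 27 O-glycosylation genes with 100 UMIs, 6 were called (17.6% of all genes), and the median ratio was 1.42, against 1.28 for all genes. The transferases GALNT13, with 124 CPM in cluster 1 and 8.17 or less elsewhere, and GALNT9, with 29.7 CPM in cluster 0 and 6.78 or less elsewhere, differed most. GALNT family enzymes attach the first sugar of an O-linked chain. GALNT4 was 2.69-fold higher in cluster 1 than in the next, and ST3GAL4, a sialyltransferase, was 2.55-fold higher in cluster 0. C1GALT1, the enzyme that extends the chain to its core, had a ratio of 1.04 (0.936 to 1.15).

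Of 13 binding partners and sheddases, 4 were called, against 17.6% of all genes, and the median ratio was 1.35, against 1.28. MSLN, the membrane protein that MUC16 binds, was highest in cluster 2 at 57.3 CPM and had 2.66 CPM in cluster 4, where MUC16 was highest. EGFR had 7149 CPM in cluster 4 and 467 or less elsewhere. SRC, a kinase that phosphorylates MUC1, had 98.8 CPM in cluster 1. LGALS3, a galectin that binds MUC1, had 854 CPM in cluster 0, where MUC1 was highest. Its levels in 3a, 3b and cluster 4 were close to each other (436, 407 and 395), whereas those of MUC1 were not. The sheddases ADAM10 and ADAM17 had ratios of 1.29 and 1.28.

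Of 16 other mucins and mucin-like genes, 5 reached 100 UMIs and 2 were called (17.6% of all genes), with a median ratio of 1.33. MUC12 had 5.02 CPM in cluster 1 and 2.03 or less elsewhere. PODXL, a sialomucin, had 86.6 CPM in cluster 0 and 45.6 in 3b, a ratio of less than 2 once the subclusters are kept apart. MUC6 had 134 UMIs and was 1.33-fold (0.846 to 2.08) higher in cluster 1 than in cluster 2, within counting error. CD164 ran from 121 CPM in cluster 1 to 197 in cluster 2. MCAM was low in clusters 0 and 1, at 4.34 and 4.54 CPM, and had 15.5 in cluster 2 and 29.6 to 36.3 in 3a, 3b and 4, so that its highest clusters were close to each other. MUC21 had 0 UMIs.

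**Figure D4:**
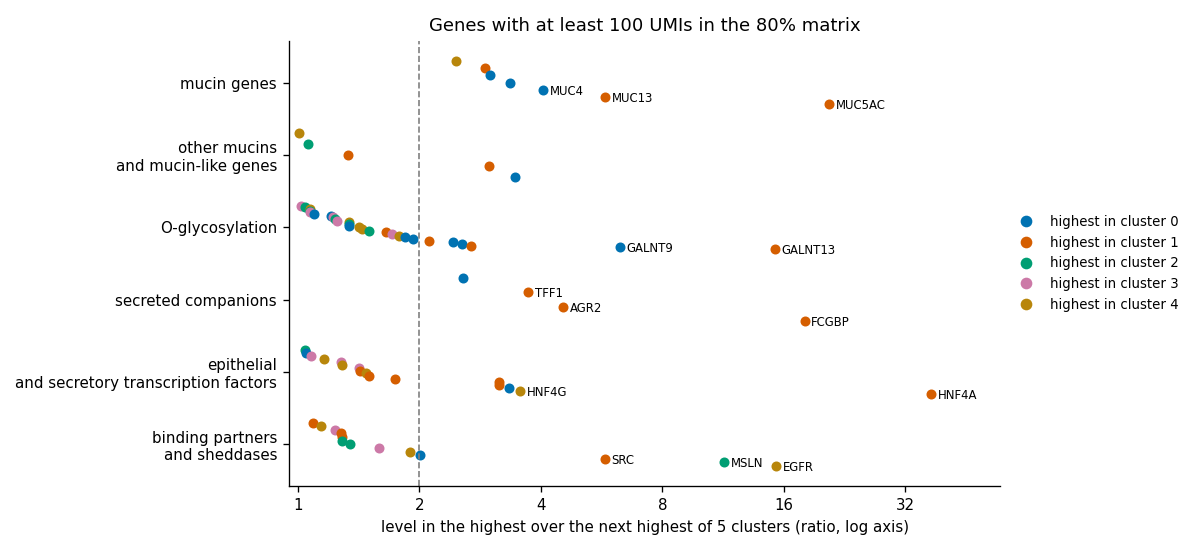
Ratio of the level in the highest to the next highest of 5 RNA clusters (horizontal axis, log scale) for genes with at least 100 UMIs in the 80% matrix, by gene list (vertical axis), coloured by the cluster with the highest level. The dashed line marks 2-fold, genes from 3.5-fold on are named, and the 7 mucins lie right of the line, up to 20.7 for MUC5AC.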

How the data were processed

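RNA and ATAC counts of the 80% and the 20% portion were used. The authors deposited whole-number counts without normalization from Cell Ranger ARC 2.0.0 on hg38, with barcodes already called as cells and peaks called in each matrix. The deposited feature tables also hold other values, coordinates of gene starts and peaks. Parameters, the annotation and the use of introns or strand in the counting are not given in the sources used here. The matrix of both portions together and the long-read counts were not analysed here, and no cell line labels were used.

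The members and gene lists were chosen with earlier results of these data known. Nuclei were clustered with Seurat 5.3.0 on 2000 variable genes without mucins and 30 components, with 20 neighbours, a seed of 0 and the lowest resolution that gave at least 5 clusters with at least 1% of the nuclei. Nuclei of the 20% matrix were given the best correlated cluster profile of the 80% matrix. Applied to the 80% nuclei, this gave 98.2% of them back their cluster. ATAC clusters used components 2 to 30, without peaks within 100000 bp of a member. Doublets (5.87% of the 80% nuclei) were found by Scrublet (scanpy 1.11.5), and the main values include them.

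UMIs were summed per cluster and scaled to 1000000 UMIs of the cluster (CPM). A gene was called where the highest cluster was at least 2-fold above the next, with at least 100 UMIs in all and a next cluster at 0 set to 3 counts. Nuclei are not replicates, so no test was run. Intervals are exact 95% Poisson or conditional binomial intervals, and they cover counting error only. For clusters of the 80% matrix, simulated data were used to test the ratio step, with 200 of 16913 genes changed. The simulated highest cluster was found for 100% of the genes changed 2-fold, 4-fold and 8-fold, with median ratios of 1.89, 3.86 and 7.42. The first median is below the 2-fold threshold, so finding the cluster did not mean that the gene was called. Of 16713 unchanged genes, 5 were called. The simulation held Poisson counting error only, without doublets, free RNA or misplaced nuclei, so it checks the calculation and not these sources of error.

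Named were all 8 members, at most 4 called genes of each list by ratio, other mucins with 100 UMIs, the 3 genes most alike to each member with 500 UMIs, start peaks, the 2 other peaks within 50 kb with the largest excess of the highest cluster, and the 3 leading genes of each cluster. SPDEF, FOXA2, CREB3L1, C1GALT1, ADAM10, ADAM17, MUC21 and the genes compared within a cluster were named after their values were seen. The same holds for the companions with fewer than 100 UMIs and for the pair of MUC1 and MUC16 in subcluster 3a. Of the listed genes, 1 is included in the counts but is not reported here by itself or plotted. Genes were placed with GENCODE v44, promoter sequences came from RefSeq for 4 of the 8 members, and the motifs were chosen with the values known.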

Additional observations from a re-analysis of the deposited data

How the results depend on the processing

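For the 7 mucins with 100 UMIs, the ratio of the highest cluster to the next was followed for the pair of clusters from the main values. It changed its direction under none of the alternatives run. This was not checked for every listed gene. With 6 RNA clusters, MCAM, GALNT3, GALNT12, GCNT4, SOX2, XBP1, ERBB3 and PECAM1, none of them called, were highest in a subcluster of cluster 3 in place of another cluster. The count of 7 mucins with a 2-fold difference was 5 to 7 under the other clusterings, nuclei, scalings and minimums, and 3 at 4-fold. The lists depended more on the settings. Of the other mucins, 2 were called, but 1 with 6 RNA clusters, 1 with 6 ATAC clusters, 1 in the 20% matrix, 1 after thinning, 1 with a minimum of 500 UMIs, 10 with a minimum of 1 UMI and 0 at 4-fold. The secreted companions went from 4 to 2 in the 20% matrix, 10 with a minimum of 1 UMI and 2 at 4-fold. The transcription factors went from 6 to 3 in the 20% matrix and 2 at 4-fold, and the O-glycosylation genes from 6 to 2 at 4-fold. The causes were not tested, except that the minimum and the fold change how many genes can be called. Of all genes with at least 100 UMIs, 12.8% were called in the 20% matrix, and 6.76% at 4-fold in the 80% matrix. For the other settings the share of all genes is not given here. With a minimum of 1 UMI, genes with few UMIs can pass by counting error, so the counts of 10 are not read as traits of the lists. The start peak count stayed at 1, MUC5B, in all alternatives. The share of nearby peaks highest in the cluster of the RNA was 60.0% within 20 kb, 47.7% within 100 kb and 57.4% without doublets, against 54.2%. The MUC5AC ratio was 38.2 without doublets and the MUC1 ratio 1.44 with the 5 ATAC clusters, which merged RNA clusters and gave a MUC4 ratio of 2.66. The MUC20 ratio was 5.77 after thinning to 5000 UMIs, when cluster 4 held only 5 UMIs of it. In the 20% matrix MUC13 was 4.78-fold (2.09 to 12.3) higher in cluster 1 than in the next, cluster 2. Over cluster 4, which had 0 UMIs there and was set to 3 counts, the ratio was at least 2.63. The Fano factor of MUC5AC was 2.73 after thinning to 2000 UMIs, and that of MUC5B 1.56. The 6-cluster solutions and the GENCODE starts were chosen after seeing the data. No paired analysis was possible because each portion had 1 library of each kind. Depth limits MUC13, MUC15 and MUC20 in the 20% matrix most.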
